A study of Homo sapiens with 6 samples.

Results

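Metallothioneins are small cysteine-rich proteins that bind zinc and copper, and MTF1, SLC30A1, SLC30A10 and SLC39A14 are genes that sense or move zinc and related metals. The group was defined by name as MT1E, MT1F, MT1G, MT1M, MT1X, MT2A, MTF1, SLC30A1, SLC30A10 and SLC39A14. Of these 10 genes, 9 were found among the 27394 gene names of the count table, and MT1G was not analysed here. The libraries came from Huh7 cells, an established human hepatocellular carcinoma line. In the first group, 3 libraries carried a control short hairpin RNA (shRNA), and in the second, 3 carried an shRNA against CTSV, which encodes the lysosomal cysteine protease cathepsin V. The labels give the control cells the genotype WT and state CTSV knockdown for the others, and the series design asks what CTSV does in liver cancer. How many shRNAs, clones or separate cultures stand behind the 3 libraries of a group was not given in the sources used here. Hence p-values reflect the spread among the libraries alone, and this spread may be technical.

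When free zinc rises in a cell, the zinc finger protein MTF1 binds metal response elements in promoters and switches on metallothionein genes and the zinc exporter gene SLC30A1. Proteins of the SLC30 family carry zinc out of the cytosol, and those of the SLC39 family carry it in. In liver, metallothioneins buffer zinc and copper and respond to metals, glucocorticoids, inflammation and oxidative stress. SLC39A14 brings zinc, manganese and iron into hepatocytes, and SLC30A10, named as a zinc transporter, exports manganese.

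The metallothionein genes analysed here lie on the plus strand of chromosome 16, from the start of MT2A at 56608199 to the end of MT1X at 56684196 on hg38. Each is annotated as protein coding in GENCODE 29, with at most 3 exons in a transcript. MTF1 (from 37809567 to 37859620), SLC30A1 (from 211571568 to 211578742) and SLC30A10 (from 219685427 to 219958647) lie on the minus strand of chromosome 1. Promoter windows for MT2A, MT1X, SLC30A1, MTF1 and SLC30A10, 5 of the 9 genes, came from RefSeq on GRCh38.p14. The 250 bases before the RefSeq start were searched on both strands for the core of the metal response element, spelled TGCACNC or TGCGCNC. The first sequence belongs to the metallothionein gene with the most reads, the second to a metallothionein gene with almost none, and the third to the zinc exporter gene. Capitals mark the matches, none of which overlap.
MT2A, chr16:56608334-56608583, plus strand: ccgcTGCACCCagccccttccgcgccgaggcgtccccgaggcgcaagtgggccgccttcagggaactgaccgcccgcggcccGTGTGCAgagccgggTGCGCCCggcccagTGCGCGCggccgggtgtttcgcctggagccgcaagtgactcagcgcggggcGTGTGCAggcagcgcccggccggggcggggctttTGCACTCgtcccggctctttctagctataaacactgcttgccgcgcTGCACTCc
MT1X, chr16:56682220-56682469, plus strand: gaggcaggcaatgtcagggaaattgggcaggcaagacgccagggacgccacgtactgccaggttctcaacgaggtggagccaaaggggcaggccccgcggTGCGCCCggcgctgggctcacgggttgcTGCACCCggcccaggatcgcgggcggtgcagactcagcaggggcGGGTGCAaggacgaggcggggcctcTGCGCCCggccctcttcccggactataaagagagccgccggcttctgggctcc
SLC30A1, chr1:211579162-211579411, minus strand: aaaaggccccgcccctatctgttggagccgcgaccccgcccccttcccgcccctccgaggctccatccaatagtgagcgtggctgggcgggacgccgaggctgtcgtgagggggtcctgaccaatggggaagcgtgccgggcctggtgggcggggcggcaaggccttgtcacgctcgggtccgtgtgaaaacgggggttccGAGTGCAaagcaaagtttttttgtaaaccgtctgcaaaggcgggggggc

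The MT2A window held 7 matches, the MT1X window 4 and the SLC30A1 window 1, while the MTF1 window and both SLC30A10 windows held 0. Of 35116 promoter windows of this length, 24.8% held at least 1 match, 0.37% at least 4 and 0.12% at least 5. A match is a stretch of letters and not a measured binding site. The RefSeq starts of MT2A and MT1X lie inside the gene spans of the count table, which begin further upstream. For SLC30A1 it is the reverse. Its window, from 211579162, lies wholly upstream of the span, whose minus-strand start is at 211578742. The SLC30A10 window from 219959099 also lies upstream of its span, which starts at 219958647. The matches found depend on the start used.

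Library totals lay between 16258803 and 18106207 counts, and 15968 genes passed the low-count filter. These were tested with edgeR (quasi-likelihood F-test, p adjusted by Benjamini-Hochberg over all of them), and a call means an adjusted p below 0.05. Every fold change sets the CTSV shRNA libraries against the controls. Of all genes tested, 40.3% were called, 21.6% lower and 18.7% higher, and their median log2 fold change was 0.02. CTSV itself had 755, 740 and 658 counts in the control libraries and 304, 264 and 296 in the CTSV shRNA libraries. Mitochondrially encoded genes took 9.09% to 9.51% of counts in controls and 11.4% to 11.8% with the CTSV shRNA. Huh7 cells expressed hepatocyte markers strongly. Of 9 tested, 6 rose (among them AFP, ALB, TF, SERPINA1 and APOB), 1 (TTR) fell and 2 were not called. Their summed level lay between 33827 and 34611 CPM (counts per 1e+06 counts, TMM-scaled) in controls and between 41345 and 42403 CPM with the CTSV shRNA. Summed markers of stellate cells lay between 46.4 and 52.6 CPM in controls and between 61.6 and 69.0 CPM with the CTSV shRNA. Of 4 tested genes, 2 were higher (COL1A2 and LUM), while COL3A1 (log2 fold change 0.22) and PDGFRB (-0.51) were not called. LUM made up most of this sum, at 36.0 and 41.5 CPM, and its adjusted p was 0.0489 in the edgeR test. Macrophage or leukocyte markers lay between 75.2 and 84.2 CPM and between 56.4 and 62.1 CPM, with 1 of 2 lower (LYZ). LYZ made up most of that sum, at 76.3 CPM in controls and 57.1 CPM with the CTSV shRNA. For cholangiocyte markers the ranges were 164.1 to 183.7 and 153.8 to 166.7 CPM, with 1 of 3 lower (SOX9). Neither of 2 tested endothelial markers was called. The part of these markers in the results was not tested. In bulk RNA, fewer cells that express a gene and less RNA of it per cell cannot be told apart.

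In CTSV shRNA cells, the metallothionein gene MT2A fell to 0.267 of its control level, and MT1E to 0.351 by a call that depended on the processing. The zinc exporter gene SLC30A1 fell to 0.691 and the zinc sensor gene MTF1 to 0.808. The importer gene SLC39A14 fell to 0.886. The manganese exporter gene SLC30A10 rose to 1.28 of the control level. The other metallothionein genes, MT1F, MT1M and MT1X, had too few reads to be tested. Thus 6 of the 9 genes were tested, with 5 called lower and 1 higher, beside 21.6% and 18.7% of all genes. Without control replicate 3, 3 were called lower. The CPM of the groups did not overlap for any of the 6, as for 49.2% of all tested genes. MT1E reached the filter of 0.600 CPM in 3 control libraries and in only 1 CTSV shRNA library, so it could enter the test only through the group where it was higher. The count is an account of the members and supports nothing further.

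**Figure D1:**
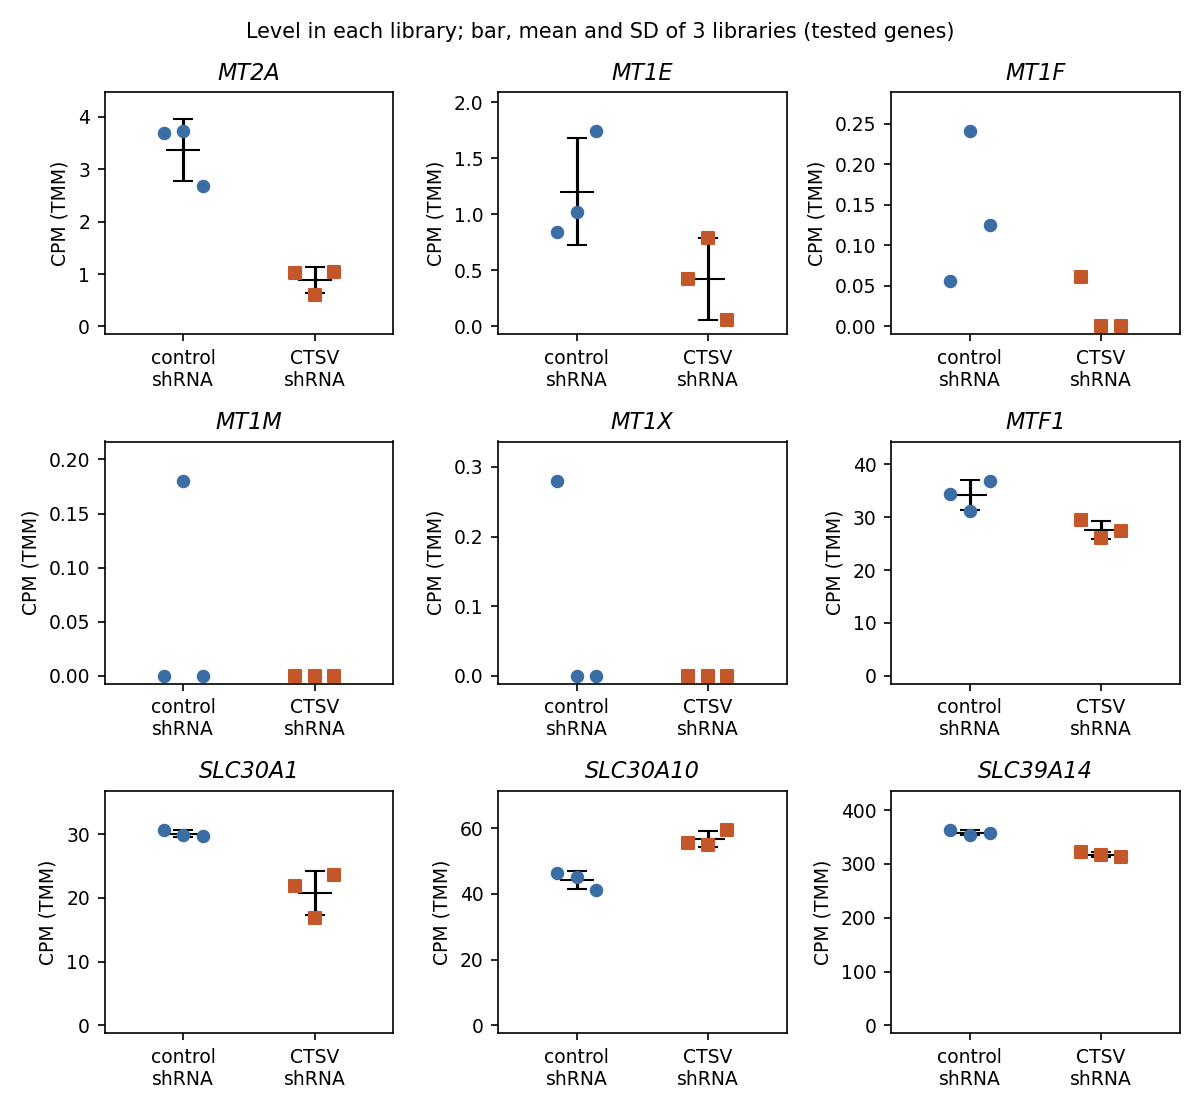
Normalised level (CPM, TMM-scaled, vertical axis) of each gene in the 3 control shRNA libraries (blue circles) and the 3 CTSV shRNA libraries (orange squares), with mean and SD bars for the 6 tested genes. For all 6 tested genes the groups do not overlap, and SLC30A10 is the one that is higher with the CTSV shRNA.

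MT2A, the most abundant metallothionein gene here and the one whose promoter is shown first, had 66, 62 and 43 counts in the control libraries. The CTSV shRNA libraries had 17, 10 and 19. Every control library was above every CTSV shRNA library. Normalised levels were 3.37 ± 0.599 CPM in controls and 0.893 ± 0.249 CPM in CTSV shRNA libraries (SD, n = 3 each). The log2 fold change of MT2A was -1.90 (SE 0.363, 95% interval from -2.64 to -1.17), with an adjusted p of 5.3e-05 in the edgeR test. It had the 16th lowest log2 fold change of 15968 tested genes. Among 5025 tested genes with a mean under 5 CPM, as MT2A has, 17.4% were called, 2.85% lower and 14.5% higher, with a median of 0.30. Among 1994 of these whose merged exons span less than 2000 bases, 13.1% were called, 2.91% lower and 10.2% higher, with a median of 0.24.

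MT1E encodes a closely related metallothionein isoform. Its counts were 15, 17 and 28 in controls and 7, 13 and 1 with the CTSV shRNA. After normalisation the groups did not overlap, although the lowest control library, at 0.841 CPM, lay close to the highest CTSV shRNA library, at 0.788 CPM. The log2 fold change was -1.51 (SE 0.602, adjusted p = 0.0428 in the edgeR test). The call was lost with DESeq2 (adjusted p = 0.103) and with the replicate number as a block (0.0517), and in the authors' deposited table MT1E had an adjusted p of 0.106. Without CTSV shRNA replicate 3, the library with 1 count, the log2 fold change was -0.97 (adjusted p = 0.234 in the edgeR test). Without control replicate 3, the library with 28 counts, it was -1.15 (0.229).

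The remaining metallothionein genes were near or below what these libraries can show. MT1F had 1, 4 and 2 counts in controls and 1, 0 and 0 with the CTSV shRNA. MT1X had 5, 0 and 0 counts in controls, and MT1M had 0, 3 and 0. Neither had a read in any CTSV shRNA library. A count of 0 allows a level of up to 0.165 to 0.187 CPM, depending on the library, for counting error alone. Differences in these genes were not detectable at this depth. MT1X, whose promoter window held 4 matches, thus had 5 counts in all. Among 9 metallothionein pseudogenes listed, 3 had a row, MT1DP, MT1P1 and MT1XP1, and none passed the filter.

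Summed over the 5 metallothionein genes, control libraries had 87, 86 and 73 counts and CTSV shRNA libraries 25, 23 and 20. The exact 95% Poisson intervals of these sums ran from 57.2 to 107 counts over the control libraries and from 12.2 to 36.9 over the others, for counting error alone. The summed level was 4.87 ± 0.314 CPM in controls and 1.34 ± 0.212 CPM with the CTSV shRNA (SD, n = 3 each), which is 3.64 times higher in controls. No test was made on this sum, whose members were chosen with earlier results known. Leaving out each library in turn gave between 3.35 and 3.90 times, and leaving out the mitochondrially encoded genes gave 3.65 times.

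The share of metallothionein reads from MT2A rests on few counts in each library. MT2A took 75.9%, 72.1% and 58.9% of the metallothionein counts in controls. With the CTSV shRNA it took 68%, 43.5% and 95%. The exact binomial 95% intervals of these 3 shares, for counting error alone, were 46.5% to 85.1%, 23.2% to 65.5% and 75.1% to 99.9%. Those of replicates 2 and 3 did not overlap. Between these 2 libraries MT2A had 10 and 19 counts and MT1E 13 and 1, while the sums were 23 and 20. What lies behind this difference was not tested. The mean share was 69.0% ± 8.90 in controls and 68.8% ± 25.8 with the CTSV shRNA (SD, n = 3 each), a difference smaller than the spread between libraries.

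Near-identical copies make metallothionein counts uncertain, and how reads with several matches were treated was not given in the sources used here. Of the distinct stretches of 50 bases in GENCODE 29 transcripts of MT2A, 3.02% also occurred in a transcript of another gene. The share was 7.10% for MT1E, 1.22% for MT1F, 9.87% for MT1M and 18.3% for MT1X, and the copies were mostly other metallothionein genes and pseudogenes. MT1X also shares 321 exon bases with a processed transcript on the same strand. For SLC30A1 and SLC30A10 the share was 0%, for SLC39A14 0.114% and for MTF1 0.891%. No exon of these 4 genes overlapped an exon of another annotated gene.

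The location of the metallothionein genes gave little to describe. Within 500000 bases on either side of the cluster on chromosome 16, 9 other genes were tested, of which 3 fell, 0 rose and 6 were not called. Most of them had a mean of 10 CPM or more, a level at which 33.4% of all tested genes were called lower and 19.7% higher. Their log2 fold changes ran from -0.62 to 0.58 with a median of -0.13. MT2A lay below this whole range, but its mean of 2.13 CPM was far under that of most of these genes.

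**Figure D2:**
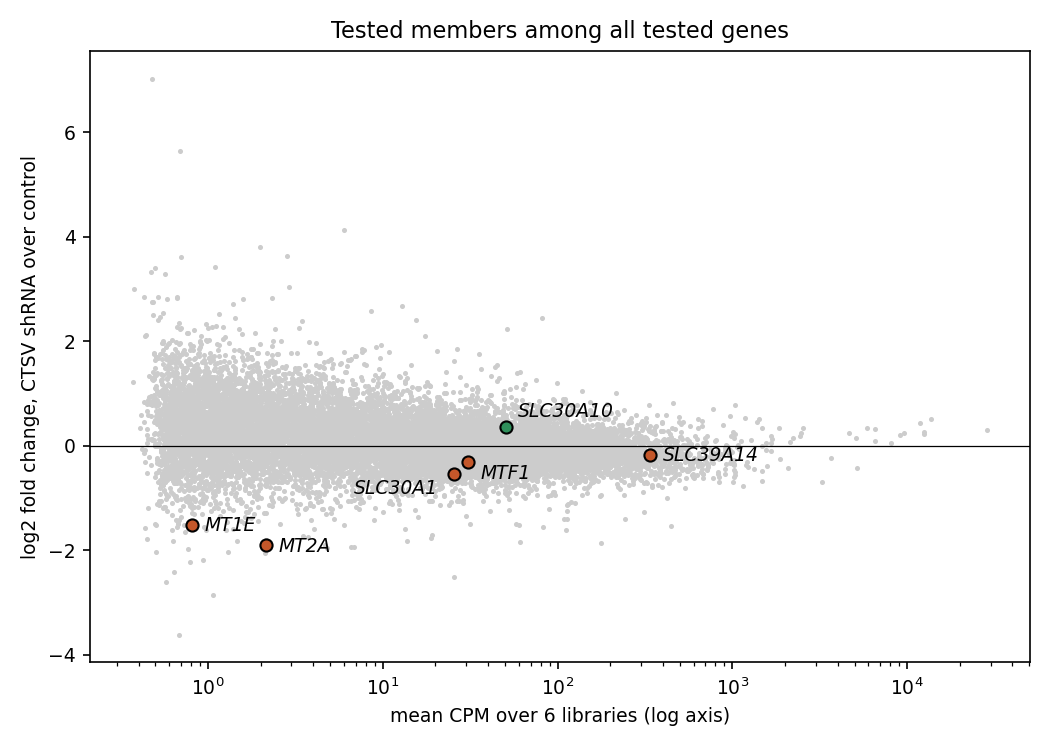
Log2 fold change, CTSV shRNA over control shRNA (vertical axis), against the mean level over 6 libraries in CPM (horizontal log axis) for 15968 tested genes (grey), with the 6 tested members coloured by direction (orange lower, green higher). MT2A at -1.90 lies near the lower edge of the genes of its level, while MTF1 at -0.31 and SLC39A14 at -0.17 lie within the cloud.

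MTF1, the transcription factor that reads zinc and drives metallothionein genes, fell by a small amount. Counts were 614, 518 and 593 in controls and 486, 430 and 497 with the CTSV shRNA. The groups did not overlap, at 34.2 ± 2.89 and 27.6 ± 1.69 CPM (SD, n = 3 each). The log2 fold change was -0.31 (SE 0.0935, adjusted p = 0.00773 in the edgeR test). Without control replicate 3 it was -0.25 and was not called (adjusted p = 0.057 in the edgeR test). At a mean of 10 CPM or more, 53.1% of 9440 tested genes were called, 33.4% lower and 19.7% higher, so a call downward is common at the level of MTF1. The median log2 fold change of these 9440 genes was -0.07.

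SLC30A1 is the exporter that moves zinc across the plasma membrane and, with the metallothionein genes, a classic MTF1 target. Its counts were 547, 497 and 478 in controls and 361, 279 and 429 with the CTSV shRNA. The 3 control libraries lay between 29.8 and 30.7 CPM, and the CTSV shRNA libraries were all lower, with replicate 2 lowest at 16.9 CPM. The log2 fold change of SLC30A1 was -0.53 (SE 0.107), with an adjusted p of 0.000106 in the edgeR test, and it was -0.41 without CTSV shRNA replicate 2, still called. SLC30A1 and MT2A both had their lowest value in CTSV shRNA replicate 2, but MT2A had only 17, 10 and 19 counts in these libraries. MT1E, by contrast, had its highest CTSV shRNA value in replicate 2, at 0.788 CPM against 0.423 and 0.055 CPM.

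SLC30A10, the manganese exporter, moved the other way. Counts were 826, 752 and 663 in controls and 917, 907 and 1081 with the CTSV shRNA. Levels were 44.3 ± 2.64 CPM in controls and 56.6 ± 2.47 CPM with the CTSV shRNA (SD, n = 3 each), without overlap. The log2 fold change was 0.35 (SE 0.0753, adjusted p = 0.000224 in the edgeR test). It lay between 0.30 and 0.38 under all 15 alternatives and was called in each.

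SLC39A14, the hepatocyte importer of zinc, manganese and iron, lies on the plus strand of chromosome 8 (from 22367249 to 22434129) and had the most reads of the group. Counts were 6474, 5884 and 5733 in controls and 5338, 5221 and 5686 with the CTSV shRNA. The replicates were tight, at 358.1 ± 4.51 and 317.3 ± 5.11 CPM (SD, n = 3 each), and the groups did not overlap. The log2 fold change of -0.17 (SE 0.0445, adjusted p = 0.00174 in the edgeR test) was the smallest in size among the 6 tested genes. With offsets for transcript length and GC content it was -0.24.

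The order of the levels changed little between the groups. Per kilobase of merged exon in controls, SLC39A14 stood at 51.6 ± 0.65 CPM, SLC30A10 at 7.68 ± 0.457, SLC30A1 at 5.50 ± 0.0877 and MTF1 at 4.26 ± 0.361. MT2A followed at 2.59 ± 0.461, and MT1E was lowest of the tested genes at 1.14 ± 0.454 CPM per kilobase (SD, n = 3 each). No neighbours among these 6 overlapped in controls, whereas MT1F, MT1M and MT1X, all at most 0.0744 CPM per kilobase, overlapped. With the CTSV shRNA, SLC30A1 at 3.80 ± 0.634 overlapped MTF1 at 3.44 ± 0.21, and MT2A at 0.688 ± 0.192 overlapped MT1E at 0.401 ± 0.348 CPM per kilobase. Per kilobase and over all 6 libraries, MT2A was above 30.8% of tested genes and SLC39A14 above 95.8%. These values depend on the length used. Merged exons span 1299 bases for MT2A and 6942 for SLC39A14, and the longest annotated transcripts 903 and 4641 bases.

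**Figure D3:**
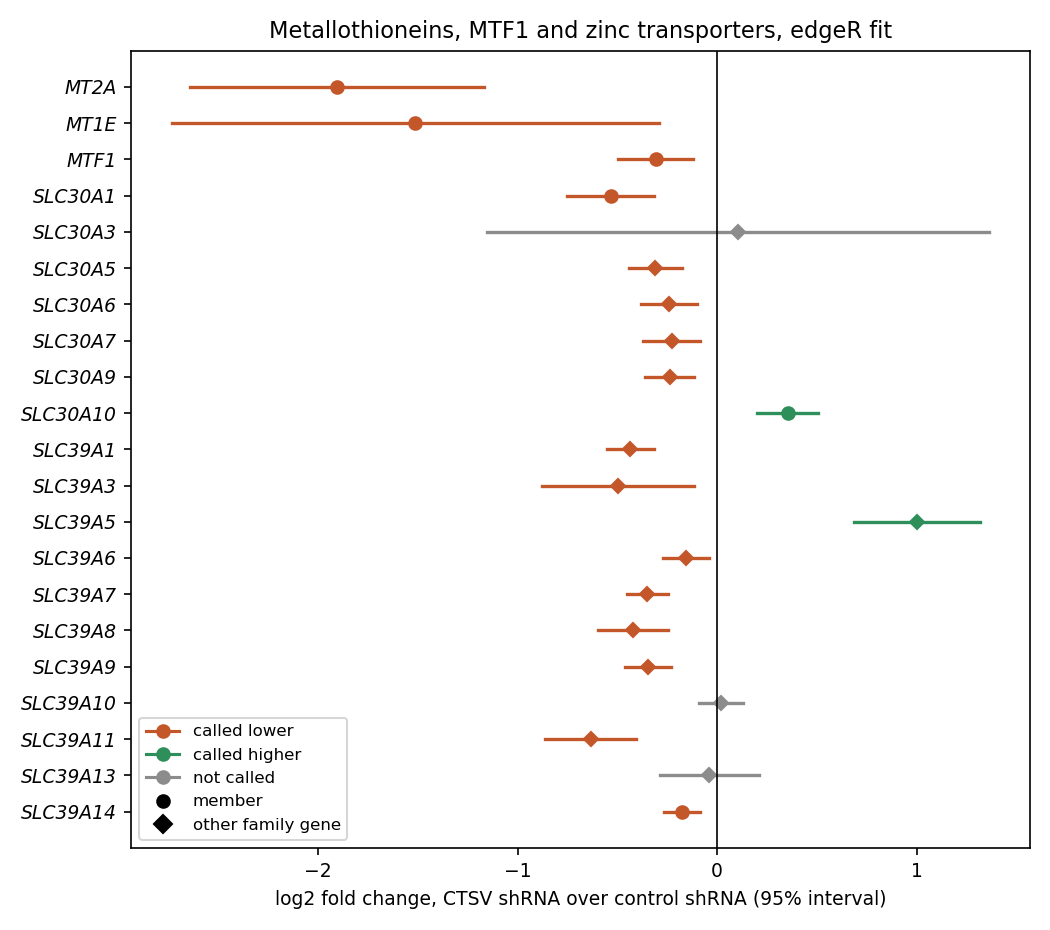
Log2 fold change, CTSV shRNA over control shRNA (horizontal axis), with 95% intervals from the edgeR fit for the 6 tested members (circles) and 15 other genes of the SLC30 and SLC39 families (diamonds). Most intervals lie left of 0, while SLC30A10 at 0.35 and SLC39A5 at 1.00 lie right of it.

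Most other zinc transporter genes that could be tested also fell. Among 5 tested SLC30 genes outside the group, 4 fell, 0 rose and 1 was not called, with a median log2 fold change of -0.24. SLC30A5 and SLC30A6, which pair to load zinc into the secretory pathway, had log2 fold changes of -0.31 and -0.24. The Golgi transporter gene SLC30A7 (-0.23) and the mitochondrial SLC30A9 (-0.24) fell by similar amounts. The call of SLC30A6 was lost without control replicate 1 (adjusted p = 0.0514 in the edgeR test) and that of SLC30A7 without CTSV shRNA replicate 2 (0.0883). SLC30A3, the transporter of synaptic vesicles, was near the filter and not called.

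Among 10 tested SLC39 genes outside the group, 7 fell, 1 rose and 2 were not called, with a median of -0.35. SLC39A11 (-0.63), SLC39A9 (-0.34) and SLC39A7 (-0.35), transporters of the Golgi and endoplasmic reticulum, and the plasma membrane importer SLC39A1 (-0.43) fell, as did SLC39A8 (-0.42), the closest relative of SLC39A14. SLC39A6 and SLC39A3 were also called lower. Those calls were lost without some libraries, and SLC39A3 also with DESeq2 (adjusted p = 0.0956). SLC39A10 had a log2 fold change of 0.02 (95% interval from -0.09 to 0.13) and SLC39A13 one of -0.04 (from -0.29 to 0.21). Together with SLC30A1, SLC30A10 and SLC39A14, 13 of 18 tested transporter genes fell and 2 rose. Of the 15 with a mean of 10 CPM or more, 12 (80%) fell and 1 (6.67%) rose, beside 33.4% and 19.7% of all tested genes at that level.

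SLC39A5, a plasma membrane zinc importer of liver, gut and pancreas, was the importer gene that rose. Counts were 119, 108 and 108 in controls and 263, 188 and 229 with the CTSV shRNA. Its level rose from 6.63 ± 0.119 to 13.3 ± 2.34 CPM (SD, n = 3 each). In log2 terms this was 1.00 (SE 0.156), with an adjusted p of 2.3e-06 in the edgeR test. The groups did not overlap.

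Genes known to regulate metallothionein transcription besides MTF1 moved in both directions. Of 11 tested, 5 fell, 1 rose and 5 were not called, with a median of -0.17. The shares over all tested genes were 21.6% lower and 18.7% higher, and over those at 10 CPM or more 33.4% and 19.7%. CEBPB, an acute phase factor, had a log2 fold change of -0.97, and IL6ST, the shared receptor chain of interleukin 6 signalling, -0.57. KEAP1 (-0.37), the partner that holds NRF2 down, NR3C1 (-0.22), the glucocorticoid receptor, and STAT3 (-0.17) also fell. IL6R, the ligand-binding receptor chain, rose by 0.53 from 7.96 ± 1.58 to 11.4 ± 0.659 CPM (SD, n = 3 each), and was not called without control replicate 1 (adjusted p = 0.0788 in the edgeR test). NR3C1 and STAT3 were not called without CTSV shRNA replicate 1, which left 3 genes called lower, and STAT3 was also not called without control replicate 3. NFE2L2, which encodes NRF2, was not called (-0.11, adjusted p = 0.0555 in the edgeR test) but was called lower under 8 of 15 alternatives, with adjusted p from 0.00183 with block and offsets to 0.0443 with the replicate block.

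Genes that respond to heavy metals and oxidants, as metallothionein genes do, mostly fell. Of 10 tested, 8 fell, 0 rose and 2 were not called, with a median of -0.61. Over all tested genes 21.6% were called lower and 18.7% higher, and over those at 10 CPM or more 33.4% and 19.7%. SRXN1 (-1.37), at 2.35 CPM in controls, was not called without CTSV shRNA replicate 2 (adjusted p = 0.0898 in the edgeR test). Without CTSV shRNA replicate 3 its adjusted p in that test was 0.0863. The list held genes that earlier results of these data had shown to fall, so it is not independent evidence of a direction. SLC7A11, a cystine transporter that feeds glutathione synthesis, fell by 1.61, close to the change of MT2A, and the glutathione synthesis gene GCLM by 1.10 on the log2 scale. The thioredoxin reductase gene TXNRD1 (-0.77), the quinone reductase gene NQO1 (-0.50) and the glutathione synthesis gene GCLC (-0.47) also fell. HMOX1, the haem oxygenase gene induced by metals, fell by 0.72, from 10.1 ± 2.56 to 6.09 ± 0.0904 CPM (SD, n = 3 each). The heat shock genes HSPA1A (-0.18) and HSPA1B (-0.05), also inducible by metals, were not called, and reads between these near-identical genes are uncertain. Without control replicate 3, HSPA1A was called lower (-0.26, adjusted p = 0.0269 in the edgeR test). Another heat shock gene of the list, DNAJB1, was called lower in the main fit (-0.35, adjusted p = 9.0e-05 in the edgeR test).

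The genes whose log2 CPM followed MT2A most closely over the 6 libraries, out of 9295 candidates with a mean of 10 CPM or more, were FAM213A, TGFB2, BUD31, OSTM1 and ERH, with Pearson's r between 0.995 and 0.999. All 5 were lower with the CTSV shRNA, by log2 fold changes from -0.25 to -0.96. With 3 libraries in each of 2 groups, this r follows mainly the difference between the groups and is a description only.

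**Figure D4:**
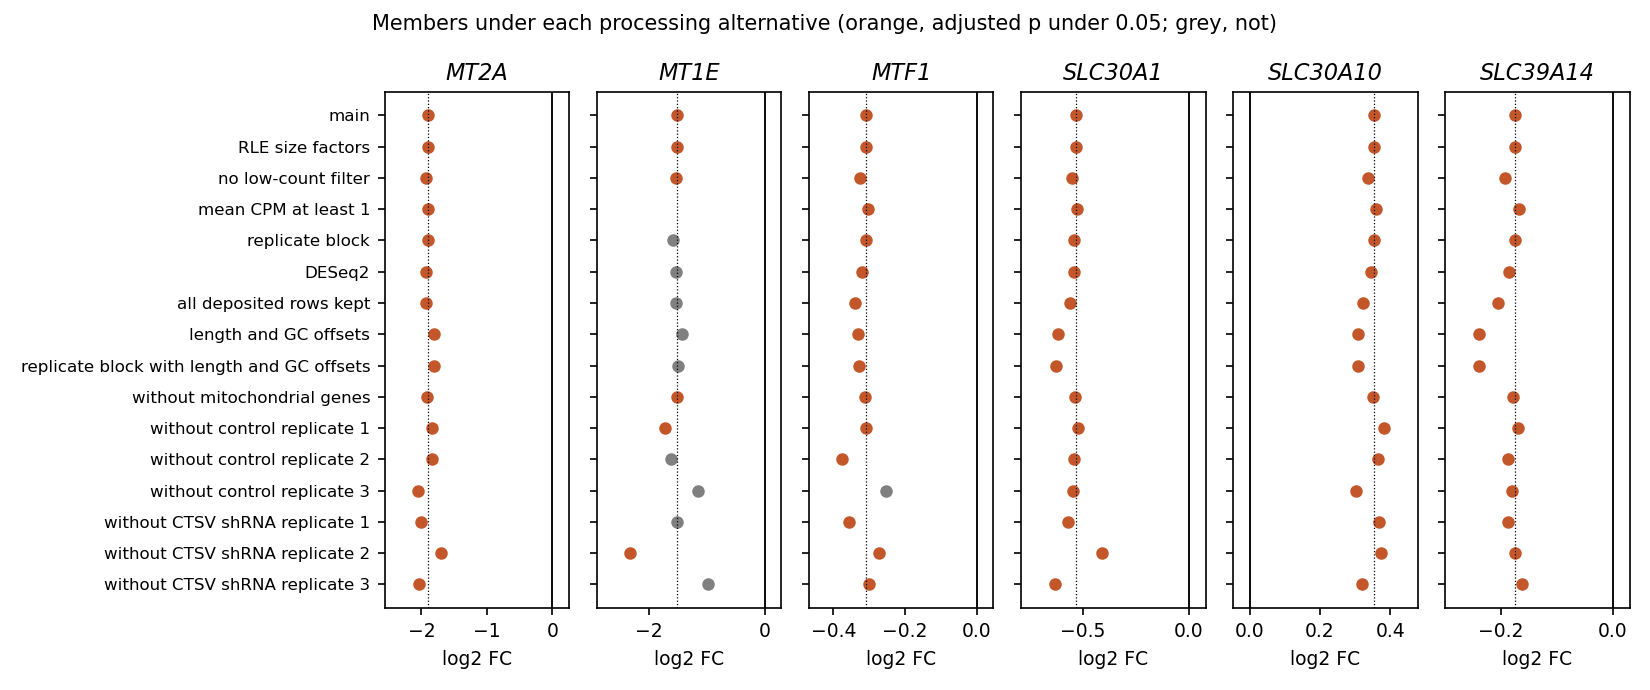
Log2 fold change of the 6 tested members (horizontal axes, scaled separately) in the main fit and under each processing alternative (vertical axis), orange where the adjusted p was under 0.05 and grey where not. MT2A, SLC30A1, SLC30A10 and SLC39A14 are orange throughout, MTF1 is grey in 1 setting, and MT1E is orange in 5 of 14 alternatives.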

How the data were processed

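RNA-seq libraries of Huh7 cells were made with TRIzol extraction and an NEBNext mRNA kit, per the labels' protocols. The deposited counts per gene are raw whole numbers. HISAT2, StringTie and SAMtools were used with hg38, per the submitters' processing notes. Counting tool, annotation, strand use and versions were not given in the sources used here. Both the authors' log2 fold changes (control over knockdown, opposite to the sign used here) and the authors' p-values were deposited in the same table, and only the value for MT1E is quoted. Of 28915 rows, 1521 repeat a gene name with the same values, so 1 row per name was kept, leaving 27394. No row lacks a gene name.

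Counts were tested with edgeR 4.0.16 in R 4.3.3 (glmQLFit and glmQLFTest, TMM, filterByExpr by group, Benjamini-Hochberg adjustment, no covariate). CPM values use TMM. Merged exon lengths, transcripts and GC content came from GENCODE 29, in which 99.6% of names were found by identifier. On simulated data drawn from the means, dispersions and library sizes of this comparison, over 15611 genes, recovery was 28% for a fold of 1.2, 64% for 1.5, 66% for 2 and 92% for 3, and 2 false calls were made. Recovery was not split by level, so it does not stand for the low levels of MT2A and MT1E (means of 2.13 and 0.812 CPM). The biological coefficient of variation was 6.87%.

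Alternatives were RLE size factors, no low-count filter, a mean of at least 1 CPM, DESeq2 1.42.0, a block on replicate number, all deposited rows, loess offsets for length and GC, both block and offsets, no mitochondrial genes, and leaving out each library in turn. Leaving out libraries for the metallothionein sum was added after the data were seen. The members and lists were chosen with earlier results of these data known. All members, CTSV, and from each other list up to 5 called genes with a mean of at least 1 CPM and the smallest adjusted p were to be named, with any uncalled zinc transporter gene at 10 CPM or more, and the 5 genes most like MT2A. SLC30A3, SLC39A3, SLC39A6, SLC39A8, STAT3, NFE2L2, HSPA1A, HSPA1B, DNAJB1, SRXN1, HMOX1, TTR, COL3A1 and PDGFRB were named outside that rule after their values were seen.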

Additional observations from a re-analysis of the deposited data

How the results depend on the processing

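Of 5 members called lower, between 3 (without control replicate 3) and 5 were so called when each library was left out, and SLC30A10 was called higher in each case. Over the other alternatives 4 or 5 were called lower. MT1E lost its call under 9 of 14 alternatives, with log2 fold changes from -2.33 to -0.97 and adjusted p from 0.0195 to 0.234, and it was not tested at a mean of at least 1 CPM. MTF1 lost its call without control replicate 3. MT2A was called under all 15 alternatives, with log2 fold changes from -2.05 to -1.70. No member changed direction in any alternative run.

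No pairing of the libraries by replicate number was seen, but the check could miss one. It ran over all 15968 tested genes, 5025 of them under 5 CPM, where counting noise lowers any correlation. Deviations of same-numbered libraries from their group means correlated between -0.012 and 0.021, and 2 of 6 libraries correlated best with their own number. With the replicate block, 3490 genes were called lower and 2996 higher, against 3451 and 2982 without it, and 4 members lower and 1 higher. With the block and the offsets together, 4289 and 2526 genes were called. MT1F, MT1M and MT1X had at most 5 counts in a library and reached the filter of 0.600 CPM in none. How far depth, and how far the treatment of reads with several matches, set these counts was not tested.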

Other observations

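Genes that handle copper, which metallothioneins also bind, did not move one way. Among 11 tested genes of copper transport and chaperones, 1 was lower, 2 were higher and 8 uncalled, with a median log2 fold change of -0.13. The shares over all tested genes were 21.6% lower and 18.7% higher, and over those at 10 CPM or more 33.4% and 19.7%. The plasma membrane copper importer gene SLC31A1 fell by 0.53, from 230.9 ± 1.15 to 160.1 ± 3.9 CPM (SD, n = 3 each). The copper exporter gene ATP7B rose by 0.33, and CCS, the chaperone that delivers copper to SOD1, by 0.26 on the log2 scale. All adjusted p values of these 3 genes were at most 0.000642 in the edgeR test, and their groups did not overlap. With length and GC offsets, or with all deposited rows, 4 genes of this list were called lower. With the block and the offsets together 3 were, and 2 with the replicate block or without CTSV shRNA replicate 1.

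Among 5 tested manganese transport genes other than SLC30A10, SLC39A8 and SLC39A14, only SLC40A1, the iron exporter, was called, with a log2 fold change of -0.21, and the median of the 5 was -0.06. Of 6 tested zinc enzyme genes, the carbonic anhydrase genes CA2 (-1.06) and CA12 (-0.56) and the superoxide dismutase gene SOD1 (-0.22) fell. ALAD, an enzyme of haem synthesis, was called higher (0.18), and that call was lost under 9 alternatives, DESeq2 among them (adjusted p = 0.128). The other 2 were not called, and the median of the 6 was -0.10. Both lists stand beside 21.6% called lower and 18.7% called higher over all tested genes, and 33.4% and 19.7% at 10 CPM or more. The median log2 fold change was 0.02 over all tested genes and -0.07 at 10 CPM or more.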
